A study of Mus musculus with 12 samples.

Results

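The Polycomb repressor genes described here are 9 mouse genes. Ezh1, Ezh2, Suz12, Eed and Jarid2 encode parts of Polycomb repressive complex 2 (PRC2), and Bmi1, Cbx2, Cbx7 and Cbx8 encode parts of Polycomb repressive complex 1 (PRC1). They were taken by symbol from a table of read counts per gene, by a rule that uses no measured value, although the set was chosen with earlier results of these data known, and each has 1 row among 53735 symbols. All 9 passed the filter on low counts and are among the 18236 genes tested. RNA was sequenced from live mammary gland cells of the mouse that had been sorted by their surface CD24 and CD49f. Luminal and basal cells of WT and of MMTVRANK mice gave 4 groups of 3 libraries each. Basal cells form the outer, contractile layer of the mammary duct and luminal cells its inner, secretory layer. In MMTVRANK mice the mouse mammary tumour virus promoter, which is active in mammary epithelium, drives the receptor Rank (gene Tnfrsf11a), and WT mice lack this transgene. Strain, age and whether replicates are separate animals are not given in the sources used here, so p-values measure the spread between these libraries, which may be technical.

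Total counts lay between 12459547 and 15069578 per library. For the replicate 2 pair of WT, the labels' title and cell subtype field name opposite populations, and the titles were used. The markers go with the titles: 10 basal markers summed to 24096 to 31931 CPM (counts scaled to a common library size) in the 6 libraries titled basal and to 281 to 772 CPM in the 6 titled luminal. Tnfrsf11a goes against the genotype label of that pair. It stood at 90.8 CPM in the library labelled WT luminal replicate 2, where the other libraries of that group had 6.36 and 9.91 CPM, and at 158 CPM in the one labelled WT basal replicate 2, where the others had 73.7 and 65.3 CPM. MMTVRANK libraries held 129 to 415 CPM. Genotype directions below take the labels as they stand. The edgeR calls of members between WT populations, made on all libraries, are also given without both libraries of that pair.

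Polycomb proteins keep genes silent through marks on histones. PRC2 places methyl groups on lysine 27 of histone H3, with Ezh2 or Ezh1 as the enzyme and Suz12 and Eed as core partners needed for its activity, while Jarid2 helps to bring PRC2 to its targets. PRC1 ubiquitinates histone H2A, with Bmi1 (also named Pcgf4) as one of the alternative Pcgf subunits, and its Cbx subunits read the methyl mark. Ezh2 is typical of dividing cells and Ezh1 of resting ones, and in the mammary gland Ezh2 and Bmi1 are known for maintaining progenitor cells and for repressing the Cdkn2a locus.

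The promoters of 3 PRC2 genes are shown because Ezh2 and Suz12 were the only ones of the 8 members found in the promoter table with an E2F-type motif and Ezh1 is the paralog of Ezh2 without one. E2F factors switch on genes of DNA replication, and the Ezh2 level is set beside such genes further on. Sequences are from RefSeq on GRCm38.p6, read 5′ to 3′ on the gene's strand from 250 bases before the start site to 50 after it, with the motif in capitals. The Ezh2 promoter is chr6:47594981-47595280 on the minus strand, the Suz12 promoter chr11:79992856-79993155 on the plus strand and the Ezh1 promoter chr11:101226414-101226713 on the minus strand.
Ezh2: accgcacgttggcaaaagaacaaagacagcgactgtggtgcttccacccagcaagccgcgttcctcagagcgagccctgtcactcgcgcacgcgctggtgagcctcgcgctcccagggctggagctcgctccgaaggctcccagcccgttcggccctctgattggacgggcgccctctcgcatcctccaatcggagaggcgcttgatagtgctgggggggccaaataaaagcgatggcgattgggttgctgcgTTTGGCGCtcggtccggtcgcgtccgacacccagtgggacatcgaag
Suz12: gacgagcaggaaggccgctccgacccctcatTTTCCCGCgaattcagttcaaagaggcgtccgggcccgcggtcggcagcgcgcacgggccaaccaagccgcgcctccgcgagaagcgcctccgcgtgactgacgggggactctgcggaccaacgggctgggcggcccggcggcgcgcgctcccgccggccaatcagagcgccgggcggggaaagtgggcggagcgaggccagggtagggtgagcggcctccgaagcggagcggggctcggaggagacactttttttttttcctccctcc
Ezh1: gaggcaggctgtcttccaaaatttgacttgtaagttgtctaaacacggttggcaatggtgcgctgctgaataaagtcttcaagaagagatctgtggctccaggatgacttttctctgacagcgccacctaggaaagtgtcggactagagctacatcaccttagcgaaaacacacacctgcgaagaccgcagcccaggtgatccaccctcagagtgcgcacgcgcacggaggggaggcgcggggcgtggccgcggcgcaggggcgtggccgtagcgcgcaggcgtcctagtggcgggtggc
The motifs searched were TTTCCCGC, TTTCGCGC, TTTGCCGC and TTTGGCGC on both strands, which share their first 3 letters and do not contain one another. TTTGGCGC began at position 4 of the Ezh2 transcript and TTTCCCGC at position −219 of Suz12, with the start base as position 1. Of all 32851 promoters of this length, 744 (2.26%) held at least 1 of the 4 motifs. The table held 9 promoters of 8 members, 2 of them for Jarid2, and 2 of the 9 held a motif. These 9 promoters held 17 (Eed) to 41 (Suz12) CpG dinucleotides, against a median of 7 and quartiles of 3 and 20 over all promoters. Each of the 4 motifs contains a CpG, and the share with a motif was not counted among promoters of like CpG content. An excess of motifs in the members can thus not be read from these values. A match is a run of letters and does not show that a factor binds there.

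Per kilobase of exon, Suz12 was the most abundant of the 9 genes in 4 of 4 groups, with means of 13.2 CPM per kb in WT basal and 18 CPM per kb in MMTVRANK luminal cells. Ezh2, Ezh1, Eed and Jarid2 had group means of 6.38 to 12.2 CPM per kb. Bmi1 had 5.22 and 5.82 CPM per kb in WT and MMTVRANK basal cells but 13.1 and 13.9 CPM per kb in the luminal groups, where it stood next to Suz12. The Cbx genes were lower, at 1.91 to 4.71 CPM per kb for Cbx7, 1.18 to 2.68 for Cbx8 and 0.620 to 1.18 for Cbx2. Cbx2 rested on 4 to 120 counts per library and the other 8 genes on 36 to 2177.

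**Figure D1:**
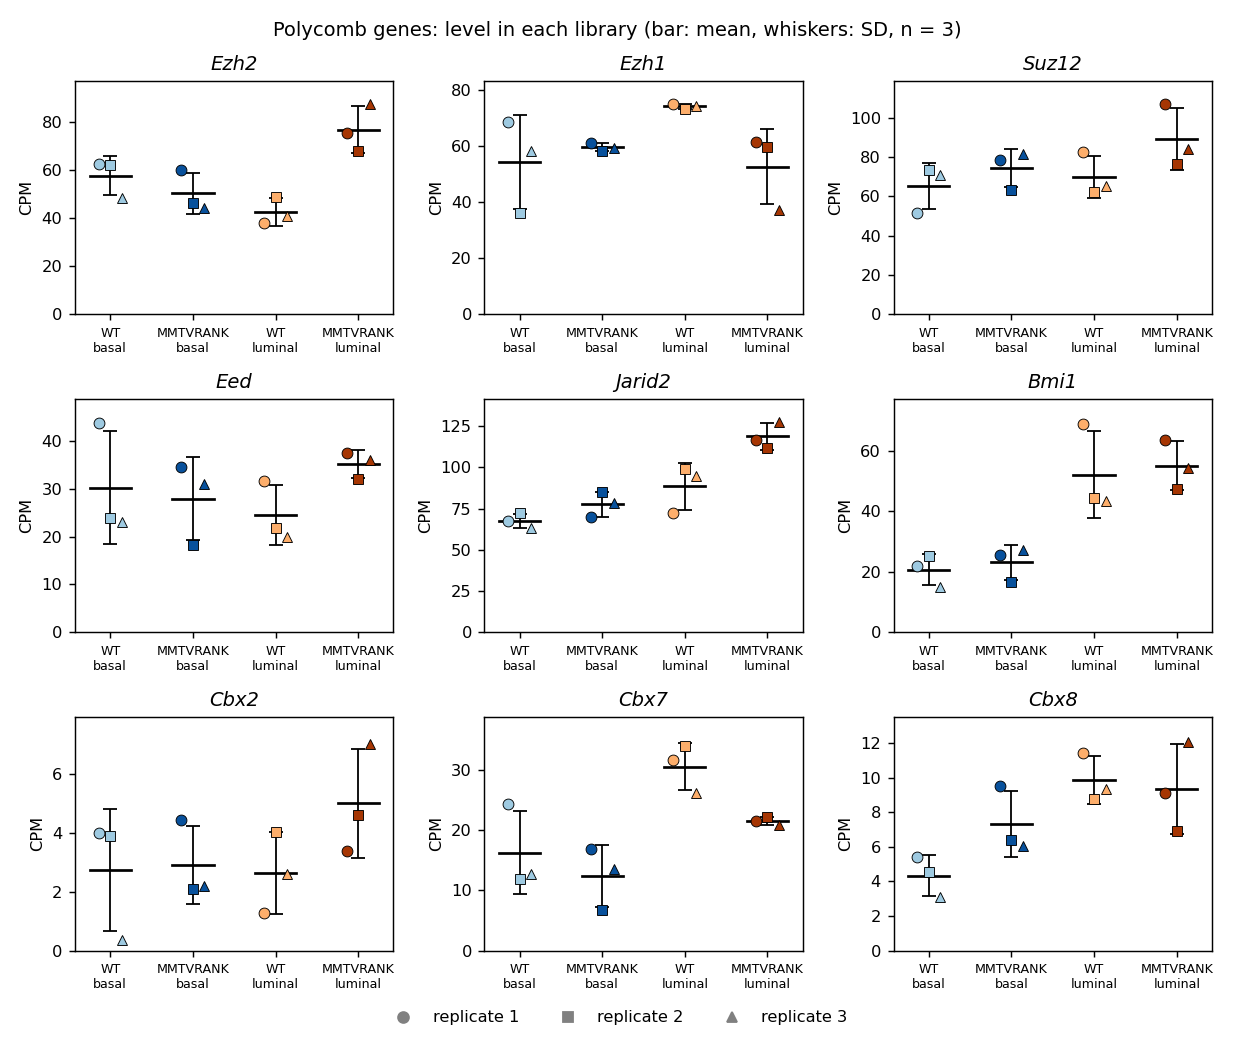
Level of each Polycomb gene in CPM (linear axis from 0) in every library, by group, with the symbol giving the replicate number, the bar the mean and the whiskers the SD of 3 libraries. Bmi1 separates the luminal from the basal libraries in both genotypes, and MMTVRANK luminal libraries are the highest for Ezh2 and Jarid2.

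More of these genes passed between the lineages than between the genotypes. In WT cells 2 of the 9 genes rose from basal to luminal cells, Bmi1 and Cbx8, and none fell (edgeR quasi-likelihood test, Benjamini-Hochberg adjusted p under 0.05), where 38.1% of all 18236 genes passed in either direction. In MMTVRANK cells 3 of the 9 rose, Bmi1, Jarid2 and Ezh2, and none fell, where 33.2% of all genes passed. Of all genes 18% rose and 20% fell in WT, and 16.1% rose and 17% fell in MMTVRANK. Taken over either direction, 2 of 9 is below and 3 of 9 is near the share for all genes. Unadjusted, 5 members had p under 0.05 in WT and 4 in MMTVRANK, where 46.7% and 42.3% of all genes did. Luminal libraries lay above all basal ones for 5 members in WT (Bmi1, Cbx8, Cbx7, Jarid2 and Ezh1) and 4 in MMTVRANK (Bmi1, Jarid2, Ezh2 and Cbx7), and below them for none. For Jarid2 in WT the nearest libraries almost touched. Of all genes 46.1% in WT and 54.5% in MMTVRANK did not overlap in either direction, 22.3% and 27.7% with luminal higher. DESeq2 called 4 members in WT, where it called 43.1% of genes, and 3 in MMTVRANK, where it called 37.8%. Without both WT replicate 2 libraries edgeR called 1 member (Bmi1) in WT, with 5322 of 19030 genes called, and 3 in MMTVRANK, with 5837 called. The median log2 fold change of the 9, luminal minus basal, was 0.39 in WT and 0.61 in MMTVRANK, against −0.07 and 0.05 over all genes tested.

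Between genotypes none of the 9 passed by edgeR in either population. In luminal cells 0 of 9 passed, where 0.252% of all genes did, and 2 had an unadjusted p under 0.05 (Ezh2 and Jarid2), where 12% of all genes did. DESeq2 called 1 there (Ezh2), where it called 5.1% of genes, and limma-voom 0, where it called 0.159%. The MMTVRANK and WT luminal libraries did not overlap for 5 of the 9, with Ezh2, Eed and Jarid2 higher in MMTVRANK and Ezh1 and Cbx7 lower, where 16.9% of all genes did not overlap, 10.1% higher and 6.82% lower. In basal cells 0 of 9 passed, where 0.00548% of all genes did, none had an unadjusted p under 0.05, where 5.41% did, and DESeq2 and limma-voom called none, where they called 0.411% and 0% of genes. Cbx8 alone did not overlap there, being higher in MMTVRANK, where 11.1% of all genes did not overlap and 6.6% were higher. The genotype effect differed between populations for 0 of 9 by edgeR, where 0.00548% of all genes passed. Of the 9, 1 (Ezh2) had an unadjusted p under 0.05, where 7.73% of all genes did, DESeq2 called 1 (Ezh2, where it called 0.934% of genes) and limma-voom 0, where it called 0%. Median log2 fold changes of the 9, MMTVRANK minus WT, were 0.35 in luminal and 0.13 in basal cells, against 0.03 and 0.004 over all genes.

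**Figure D2:**
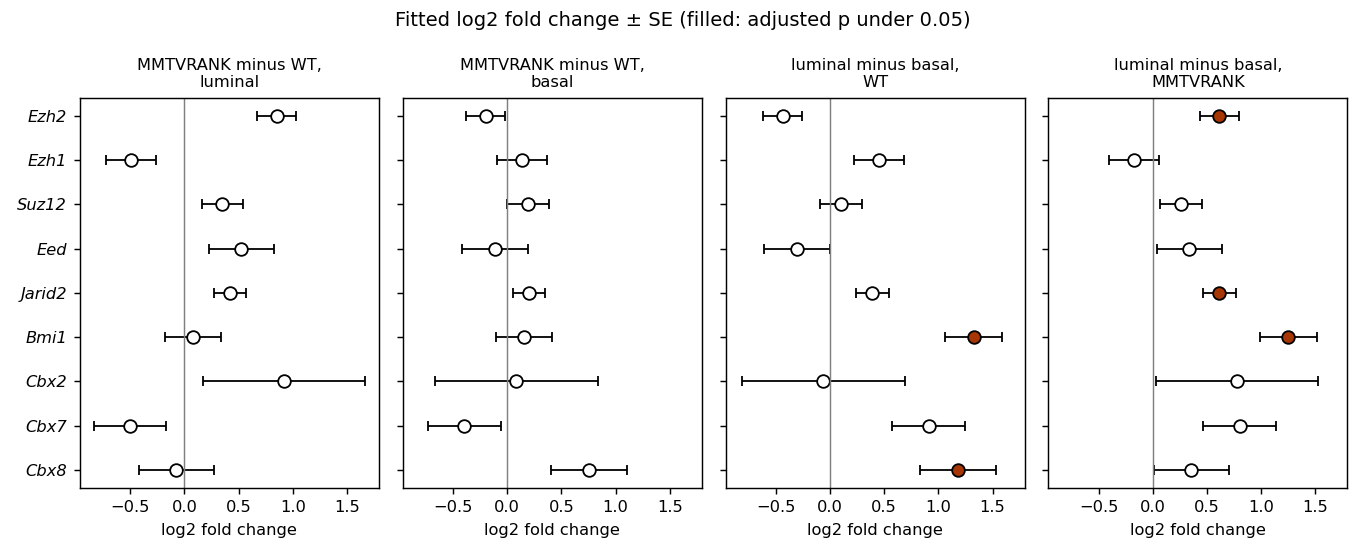
Fitted log2 fold change of each Polycomb gene with its SE in 4 comparisons, filled where the edgeR adjusted p was under 0.05. The filled points are Bmi1 in both lineage comparisons, Cbx8 in WT and Ezh2 and Jarid2 in MMTVRANK.

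Ezh2, the main methyltransferase of PRC2 (chromosome 6, 47530139 to 47595341 of GRCm38.p6, minus strand), was highest in MMTVRANK luminal cells. Its level was 75.4, 68.1 and 87.5 CPM in replicates 1, 2 and 3 of that group and 37.9, 49.1 and 41.0 CPM in WT luminal cells. WT basal libraries held 62.7, 62.4 and 48.3 CPM and MMTVRANK basal libraries 60.3, 46.5 and 44.3 CPM. Each MMTVRANK luminal library thus lay above all 9 other libraries, while the other 3 groups overlapped with their neighbours in the order. Group means ± SD (n = 3) were 77.0 ± 9.79 CPM in MMTVRANK luminal, 57.8 ± 8.20 in WT basal, 50.4 ± 8.65 in MMTVRANK basal and 42.7 ± 5.78 in WT luminal cells. Since these are bulk libraries, fewer cells of a type and less RNA per cell cannot be told apart, here and for every gene below.

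For luminal cells the fitted log2 fold change of Ezh2, MMTVRANK minus WT, was 0.85 (SE 0.18), which did not pass (edgeR, unadjusted p = 0.000473, adjusted p = 0.0795). It passed with DESeq2 (0.79, adjusted p = 0.00404) and with no filter on low counts (0.84, adjusted p = 0.0204). Without both WT replicate 2 libraries the value was 0.96 (adjusted p = 0.0888), and over all 18 alternatives the value lay between 0.71 and 0.96 with adjusted p from 0.00404 to 0.285. Basal cells had −0.20 (SE 0.18, adjusted p = 1). The difference between these genotype effects was 1.05 (SE 0.26, unadjusted p = 0.00135, edgeR adjusted p = 0.390), and DESeq2 gave 1.02 with adjusted p = 0.0360. The fitted lineage difference had opposite signs in the genotypes, and the WT value did not pass. Ezh2 rose from basal to luminal cells in MMTVRANK by 0.61 (SE 0.18, edgeR adjusted p = 0.0198), and in WT it had −0.44 (SE 0.18, adjusted p = 0.0742). The MMTVRANK call was lost with no filter on low counts (0.63, adjusted p = 0.0612) and without MMTVRANK basal replicate 2 (0.56, adjusted p = 0.0797), MMTVRANK basal replicate 3 (0.53, adjusted p = 0.0871) or MMTVRANK luminal replicate 3 (0.51, adjusted p = 0.0738). The WT value passed with RLE factors (adjusted p = 0.0461), with DESeq2 (adjusted p = 0.0381) and without WT basal replicate 3 (−0.54, adjusted p = 0.0458). Over all 18 alternatives the adjusted p of the WT value lay between 0.0381 and 0.296.

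In luminal cells proliferation genes were higher in MMTVRANK, as Ezh2 was, though few passed. A list of 32 such genes, among them Mki67, Top2a and the Mcm genes, summed to 3024, 1407 and 2843 CPM in MMTVRANK luminal replicates 1, 2 and 3 and to 514, 712 and 325 CPM in WT luminal ones. In basal cells the sums were 729, 1742 and 288 CPM in WT and 1697, 1224 and 976 CPM in MMTVRANK. In luminal cells 32 of the 32 genes had a positive log2 fold change with a median of 2.32. Unadjusted p was under 0.05 for 30 of them, where it was for 12% of all genes, and 1, Tyms (thymidylate synthase), passed by adjusted p. Within MMTVRANK basal libraries Ezh2 followed the order of the sums, with 60.3, 46.5 and 44.3 CPM at 1697, 1224 and 976 CPM. In the other groups the order was shared in part. WT basal replicates 1 and 2, for example, had nearly equal Ezh2, 62.7 and 62.4 CPM, at sums of 729 and 1742 CPM. At sums of 1407, 1742 and 1697 CPM, Ezh2 was 68.1 CPM in MMTVRANK luminal replicate 2, 62.4 CPM in the library labelled WT basal replicate 2 and 60.3 CPM in MMTVRANK basal replicate 1. The part of proliferation in the Ezh2 values was not tested. MMTVRANK luminal replicate 3, the library with the most Ezh2, also held more leukocyte RNA. Its 12 leukocyte markers summed to 1100 CPM with none at 0 (48.7 CPM for Ptprc, the pan-leukocyte CD45 gene), where the other 5 luminal libraries had 126 to 159 CPM and basal libraries 21.2 to 227 CPM. Of these markers 11 were higher in MMTVRANK than in WT luminal cells and none passed. Without this library the Ezh2 value in luminal cells was 0.71 (adjusted p = 0.285). The 10 luminal markers summed to 7918 to 13924 CPM in MMTVRANK luminal libraries, lowest in replicate 3, and to 16147 to 23685 CPM in WT luminal ones, which did not overlap. They were lower in MMTVRANK for 9 of 10, with a median of −0.58, and none passed. Basal markers were higher for 9 of 10, with a median of 1.14 and none passing, at sums of 383 to 772 CPM in MMTVRANK and 281 to 564 CPM in WT luminal libraries. The part of these cell markers in the luminal genotype values of Ezh2 and the other members was not tested.

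Ezh1, the second methyltransferase (chromosome 11, 101191115 to 101226463, minus strand), had the reverse order in luminal cells. WT luminal libraries held 75, 73.3 and 74.1 CPM and MMTVRANK luminal libraries 61.3, 59.6 and 37.1 CPM. WT basal libraries stood at 68.6, 36.1 and 58.1 CPM and MMTVRANK basal ones at 61.0, 58.3 and 59.1 CPM. WT luminal cells were thus above all 9 other libraries, and the other 3 groups overlapped. The log2 fold change in luminal cells, MMTVRANK minus WT, was −0.49 (SE 0.23, edgeR adjusted p = 0.434), and luminal minus basal it was 0.45 in WT (SE 0.23, adjusted p = 0.149) and −0.18 in MMTVRANK (SE 0.23, adjusted p = 0.603). None of these passed in any of the 18 alternatives. The WT value was 0.23 without WT basal replicate 2, its lowest library, and 0.67 without WT basal replicate 1.

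As a share of the summed CPM per kb of both enzymes, Ezh2 made up 39.0% ± 3.44 (SD, n = 3) in WT luminal cells and 62.1% ± 9.01 in MMTVRANK luminal cells. In WT basal cells it was 54.8% ± 9.62 and in MMTVRANK basal cells 48.3% ± 3.62. The ratio of Ezh2 to Ezh1 per kb was 0.563, 0.746 and 0.617 in WT luminal replicates 1, 2 and 3 and 1.37, 1.27 and 2.63 in MMTVRANK luminal ones. Ezh1 thus exceeded Ezh2 in 3 of 3 WT luminal libraries and Ezh2 exceeded Ezh1 in 3 of 3 MMTVRANK luminal libraries. The basal ratios, 1.02, 1.93 and 0.927 in WT and 1.10, 0.887 and 0.835 in MMTVRANK, lay between or across these ranges. The 2 extreme ratios outside WT luminal cells, 1.93 and 2.63, came from the 2 libraries with the least Ezh1, those labelled WT basal replicate 2 and MMTVRANK luminal replicate 3. This ratio is a description and was not tested.

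**Figure D3:**
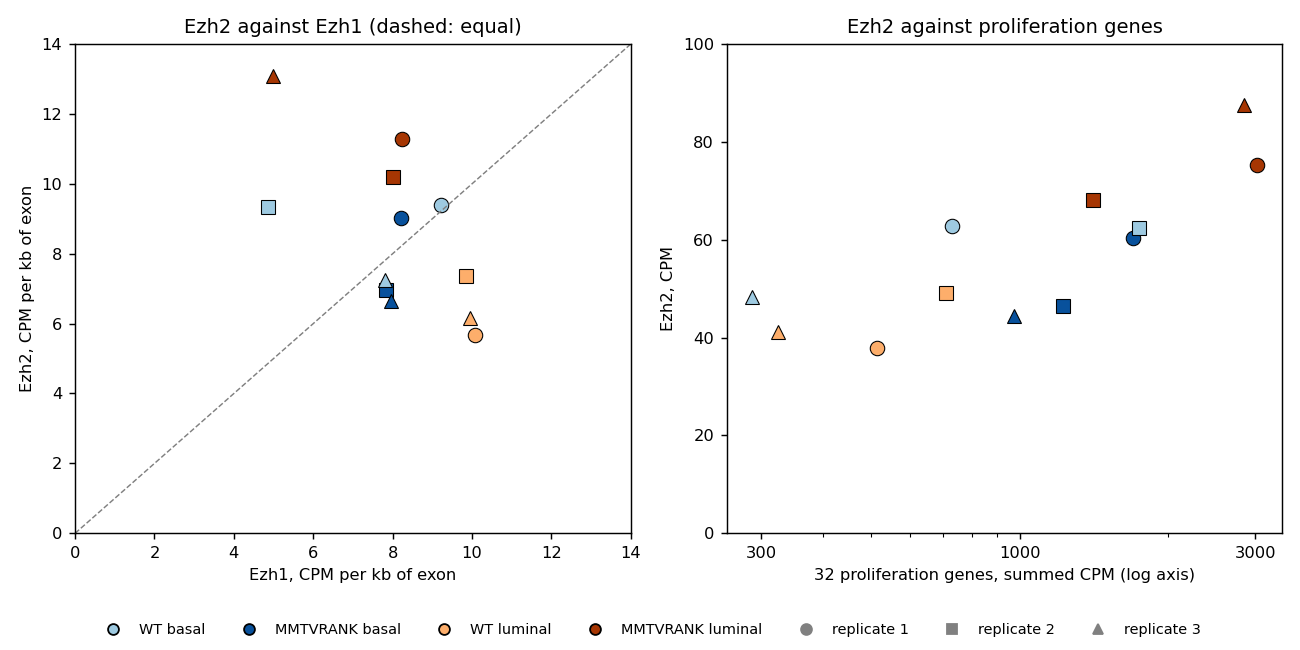
Left, Ezh2 against Ezh1 in CPM per kb of exon, one point per library, with the dashed line at equal levels. Right, Ezh2 in CPM against the summed CPM of 32 proliferation genes on a log axis. WT luminal libraries lie below the line, MMTVRANK luminal libraries above it, and the highest Ezh2 levels are in MMTVRANK luminal libraries with sums of 1407 to 3024 CPM.

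The core partners Suz12 and Eed did not pass in any of the 5 comparisons. Suz12 (chromosome 11, 79993106 to 80034123, plus strand) stood at 51.6, 73.4 and 70.9 CPM in WT basal, 78.7, 63.5 and 81.4 in MMTVRANK basal, 82.3, 62.2 and 65.3 in WT luminal and 107, 76.3 and 84.2 in MMTVRANK luminal libraries. All 4 groups overlapped with their neighbours, and the log2 fold change in luminal cells was 0.35 (SE 0.19, edgeR adjusted p = 0.535). Without MMTVRANK luminal replicate 1, the highest library, it was 0.15. Eed, the subunit that binds the methyl mark (chromosome 7, 89954654 to 89980983, minus strand), held 43.8, 23.9 and 22.9 CPM in WT basal and 34.6, 18.2 and 30.9 in MMTVRANK basal libraries. Its luminal levels were 31.6, 21.8 and 19.9 CPM in WT and 37.5, 32 and 36.0 CPM in MMTVRANK, which did not overlap but almost touched. The value for luminal cells was 0.53 (SE 0.30, adjusted p = 0.560). Replicate 1 was the highest library of its group for Eed in 4 of 4 groups. WT basal replicate 1, the highest of all for Eed, also held the most fibroblast RNA: 8 fibroblast markers summed to 2935 CPM there and to 285 to 738 CPM in the other 5 basal libraries. That library was also the highest basal one for Cbx7 and Ezh1 (68.6 CPM) and, by little, for Ezh2 (62.7 CPM). The part of these cells in the values of any member was not tested.

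Jarid2 (chromosome 13, 44729474 to 44921643, plus strand) was, with Ezh2, one of the 2 members whose MMTVRANK luminal libraries all lay above the other 9. The share of all genes with a group above all other libraries was not counted, here and for Ezh2, Ezh1 and Cbx7. It stood at 116, 112 and 128 CPM there, at 72.1, 98.7 and 94.6 CPM in WT luminal, 69.7, 84.9 and 78.3 in MMTVRANK basal and 67.4, 72.0 and 63.2 in WT basal libraries. The WT luminal libraries were above the WT basal ones but overlapped with MMTVRANK basal. The lowest WT luminal and the highest WT basal library almost touched, at 72.07 and 72.02 CPM. In MMTVRANK Jarid2 rose from basal to luminal cells by 0.61 on the log2 scale (SE 0.15, edgeR adjusted p = 0.00766), a call kept in all 18 alternatives with values of 0.54 to 0.68. In WT the value was 0.39 (SE 0.15, adjusted p = 0.0591), and without WT luminal replicate 1, the lowest of its group, it passed at 0.53 (adjusted p = 0.0161). MMTVRANK minus WT, the values were 0.42 in luminal cells (SE 0.15, unadjusted p = 0.0154, adjusted p = 0.258) and 0.20 in basal cells (SE 0.15, adjusted p = 0.990). Without both WT replicate 2 libraries the luminal value was 0.51 (adjusted p = 0.275).

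Bmi1 (chromosome 2, 18677018 to 18686629, plus strand) marked the luminal lineage in both genotypes. Basal libraries held 21.9, 25.2 and 15.1 CPM in WT and 25.6, 16.6 and 27.1 CPM in MMTVRANK. Luminal libraries held 68.6, 44.4 and 43.3 CPM in WT and 63.4, 47.5 and 54.2 CPM in MMTVRANK. The lowest luminal library was thus well above the highest basal one, while the genotypes overlapped within each population. Bmi1 rose from basal to luminal cells by 1.33 in WT (SE 0.26, edgeR adjusted p = 0.00176) and by 1.25 in MMTVRANK (SE 0.26, adjusted p = 0.00280). Both calls were kept in all 18 alternatives, with values of 1.09 to 1.60 and of 1.06 to 1.38, the 1.60 being the one without both WT replicate 2 libraries. Between genotypes the values were 0.08 in luminal (SE 0.26, adjusted p = 0.972) and 0.16 in basal cells (SE 0.26, adjusted p = 1). Among the Pcgf genes, of which a PRC1 complex holds 1, Bmi1 made up 15.3% ± 2.80 of the summed CPM per kb in WT basal, 16.4% ± 3.31 in MMTVRANK basal, 29.9% ± 4.68 in WT luminal and 32.6% ± 2.61 in MMTVRANK luminal cells (SD, n = 3).

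Cbx8 and Cbx7, alternative readers of the methyl mark, were also higher in luminal than in basal cells of WT. Cbx8 (chromosome 11, 119036305 to 119040969, minus strand) stood at 5.41, 4.54 and 3.08 CPM in WT basal and at 11.5, 8.80 and 9.34 CPM in WT luminal libraries, which did not overlap. It rose by 1.18 (SE 0.35, edgeR adjusted p = 0.0188). The call was lost with no filter on low counts (1.22, adjusted p = 0.0593), without both WT replicate 2 libraries (1.30, adjusted p = 0.0582), without WT luminal replicate 1 (1.07, adjusted p = 0.0584) and without WT basal replicate 3 (0.99, adjusted p = 0.0609). In MMTVRANK the basal libraries held 9.53, 6.41 and 6.03 CPM and the luminal ones 9.12, 6.90 and 12.1 CPM. These overlapped, with a value of 0.35 (SE 0.35, adjusted p = 0.472). In basal cells all 3 MMTVRANK libraries lay above all 3 WT ones, with a log2 fold change of 0.75 (SE 0.35, unadjusted p = 0.0524, adjusted p = 0.901), and the genotype effects differed between populations by −0.83 (SE 0.49, adjusted p = 0.739).

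Cbx7 (chromosome 15, 79915807 to 79971119, minus strand) held 31.6, 33.9 and 26.2 CPM in WT luminal, 21.6, 22.2 and 20.9 in MMTVRANK luminal, 24.3, 11.9 and 12.7 in WT basal and 16.9, 6.66 and 13.6 in MMTVRANK basal libraries. WT luminal libraries were above the other 9. Luminal minus basal, the value in WT was 0.91 (SE 0.34) and just missed the threshold (edgeR adjusted p = 0.0504). It passed in 7 of 18 alternatives, with the replicate number as a block (0.98, adjusted p = 0.0250), with DESeq2 (0.87, adjusted p = 0.0377), with limma-voom (0.97, adjusted p = 0.0202), with no filter (0.95, adjusted p = 0.0211), and without WT basal replicate 1 (1.33, adjusted p = 0.0106), MMTVRANK basal replicate 1 (0.92, adjusted p = 0.0465) or MMTVRANK basal replicate 2 (0.92, adjusted p = 0.0232). WT basal replicate 1, with the most fibroblast RNA, was the highest basal library for Cbx7. Without both WT replicate 2 libraries the value was 0.65 (adjusted p = 0.276). In MMTVRANK the value was 0.80 (SE 0.34, adjusted p = 0.0908), and with the block 0.86 (adjusted p = 0.0477). MMTVRANK minus WT it was −0.51 in luminal (SE 0.34, adjusted p = 0.646) and −0.40 in basal cells (SE 0.34, adjusted p = 1). Opposite-strand exons of Apobec3 overlap 100 bases of Cbx7, and the counting used no strand, so reads there cannot be told apart.

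Cbx2 (chromosome 11, 119022962 to 119031270, plus strand) had the lowest counts of the 9 genes. It held 4.02, 3.89 and 0.342 CPM in WT basal, 4.46, 2.11 and 2.19 in MMTVRANK basal, 1.27, 4.04 and 2.6 in WT luminal and 3.40, 4.60 and 7.03 in MMTVRANK luminal libraries. All 4 groups overlapped with their neighbours. WT basal replicate 3 rested on 4 counts, whose exact 95% Poisson interval of 1.09 to 10.2 counts covers counting error only. The log2 fold change in luminal cells was 0.92 with an SE of 0.75 (edgeR adjusted p = 0.756), a difference that was not told apart from the spread between libraries. The SD was 36.9% of the mean in MMTVRANK luminal and 52.5% in WT luminal cells. Cbx2 and Cbx8 are neighbours on chromosome 11, with 5034 bases between them. Of the pair Cbx8 alone was called in WT, where Cbx2 had −0.06, luminal minus basal (SE 0.75, adjusted p = 0.958).

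Shares among 4 Cbx genes, alternative readers in canonical PRC1 complexes, went with the lineage as well. Of the summed CPM per kb of Cbx2, Cbx6, Cbx7 and Cbx8, Cbx7 held 17.9% ± 4.95 (SD, n = 3) in WT basal and 40.3% ± 2.90 in WT luminal cells, and 11.0% ± 3.45 and 29.3% ± 4.59 in MMTVRANK. Cbx8 held 8.57% ± 1.55 and 23.1% ± 3.64 in WT and 11.7% ± 1.80 and 21.9% ± 3.29 in MMTVRANK. Cbx6 went the other way, with 69.0% ± 7.75 in WT basal and 31.4% ± 2.6 in WT luminal cells, and 73.4% ± 5.05 and 38.6% ± 2.29 in MMTVRANK. Cbx2 held mean shares of 3.96% to 10.1%. Shares are parts of a whole, so a lower Cbx6 level alone raises the other shares. Cbx6 had means of 9.34 and 3.65 CPM per kb in WT basal and luminal cells and 12.3 and 4.43 in MMTVRANK. Cbx8 levels overlapped between the MMTVRANK populations although its share differed. These shares are a description and were not tested, and Cbx6 shares 563 bases on its own strand with Npcd.

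**Figure D4:**
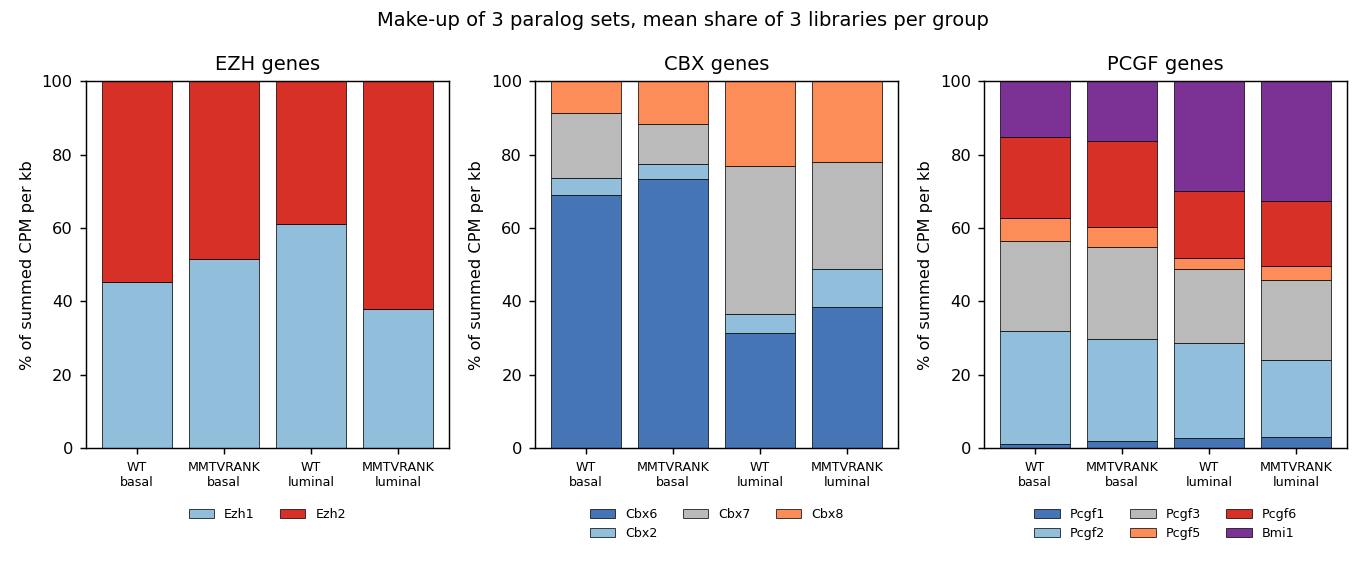
Mean share of 3 libraries per group of each paralog in the summed CPM per kb of its set (percent, axis from 0 to 100) for the EZH, CBX and PCGF genes. Ezh2 holds 39.0% in WT luminal and 62.1% in MMTVRANK luminal cells, and Cbx7, Cbx8 and Bmi1 hold larger shares in luminal than in basal groups.

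Other subunits and partners of PRC2 were read from a list of 10 genes, 9 of them in the table and tested. Luminal minus basal, 1 of 9 fell in WT and none rose, and 1 rose and 1 fell in MMTVRANK. These counts are below the 38.1% in WT and 33.2% in MMTVRANK of all genes called. The gene that fell in both was Aebp2, which joins Jarid2 in one form of PRC2. It stood at 91.6, 116 and 143 CPM in WT basal and 53.5, 45.3 and 45.3 CPM in WT luminal libraries, and at 105, 109 and 101 CPM and 49.5, 48.1 and 59.3 CPM in MMTVRANK. No luminal library reached the basal range. Aebp2 fell by 1.28 in WT (SE 0.17, edgeR adjusted p = 0.000107) and by 1.01 in MMTVRANK (SE 0.17, adjusted p = 0.000675), and both calls were kept in all 18 alternatives. Jarid2 and Aebp2 thus had opposite signs in both lineage comparisons. Lcor, whose locus also encodes a PRC2 partner, rose in MMTVRANK by 0.75 (SE 0.20, adjusted p = 0.0132), except without MMTVRANK basal replicate 1 (0.69, adjusted p = 0.0544).

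Between genotypes 0 of these 9 genes passed by edgeR in either population, and 3 in luminal and 0 in basal cells had an unadjusted p under 0.05. Of all genes 12% in luminal and 5.41% in basal cells had such a p. The Polycomb-like gene Phf1 held 30.3, 43.3 and 27.6 CPM in WT luminal and 22.0, 18.5 and 14.2 CPM in MMTVRANK luminal libraries, a log2 difference of −0.89 (SE 0.29, adjusted p = 0.218). Its relative Phf19 held 1.87, 3.48 and 1.59 CPM against 8.78, 5.05 and 6.09 CPM, a log2 difference of 1.52 (SE 0.68, adjusted p = 0.396). Neither pair of groups overlapped, where 16.9% of all genes did not overlap. The histone-binding subunit gene Rbbp7 had 0.47 (SE 0.21, adjusted p = 0.405) with overlapping groups. The list's median was 0.12 in luminal and 0.08 in basal cells, against 0.03 and 0.004 over all genes.

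Other PRC1 subunits and partners formed a list of 22 genes, all tested. Luminal minus basal, 2 rose and 7 fell in WT, and 2 rose and 5 fell in MMTVRANK, with list medians of −0.07 and −0.25 against −0.07 and 0.05 over all genes. Calls for 9 and 7 of 22 genes are near the 38.1% and 33.2% of all genes called. The genes with the smallest p were the same in both genotypes: Cbx6, a reader of the methyl mark, Yaf2, a partner of the catalytic subunit in variant PRC1, and Bcor and Auts2, which belong to variant PRC1 complexes. Cbx6 stood at 93.6 to 103 CPM in WT basal and 36.2 to 40.3 CPM in WT luminal libraries, and fell by 1.35 in WT (SE 0.14, edgeR adjusted p = 1.81e-05) and by 1.48 in MMTVRANK (SE 0.14, adjusted p = 9.01e-06). Yaf2 fell by 1.37 and 1.32, Bcor fell by 1.28 and 1.12, and Auts2 fell by 2.75 and 2.56, in WT and MMTVRANK. Auts2 held 314 to 412 CPM in the 6 basal and 21.0 to 91.7 CPM in the 6 luminal libraries. These 4 genes were called in both genotypes in all 18 alternatives.

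The remaining calls of this list are named after their values were seen. In WT, Ring1, a catalytic subunit, rose by 1.00 and Phc3 rose by 0.78, and Scml2 fell by 2.27, Kdm2b fell by 0.81 and Rybp fell by 0.69. Rybp lost its call in 5 of 18 alternatives, among them those without WT luminal replicate 2 (−0.61, adjusted p = 0.0847), WT luminal replicate 3 (−0.59, adjusted p = 0.0874) or WT basal replicate 3 (−0.53, adjusted p = 0.0939). In MMTVRANK, Ring1 rose by 0.73 and Phc2 rose by 0.43 and Kdm2b fell by 0.62. Those 3 calls were lost in 6, 8 and 4 of 18 alternatives, and each was lost without MMTVRANK basal replicate 1 (0.66, 0.44 and −0.55) and without MMTVRANK luminal replicate 1 (0.78, 0.44 and −0.56) or 2 (0.68, 0.47 and −0.51). Ring1 and Phc2 also lost theirs without MMTVRANK basal replicate 2 (0.58 and 0.45) or MMTVRANK luminal replicate 3 (0.74 and 0.37), and Phc2 without MMTVRANK basal replicate 3 (0.40). Between genotypes 0 of 22 passed by edgeR in either population, with 1 at an unadjusted p under 0.05 in each: Scml2 in luminal cells (1.94, SE 0.51, adjusted p = 0.131, called in 2 of 18 alternatives with adjusted p from 0.00652 to 0.336) and Cbx6 in basal cells (0.40, SE 0.14, adjusted p = 0.784). Of all genes 12% in luminal and 5.41% in basal cells had such an unadjusted p.

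**Figure D5:**
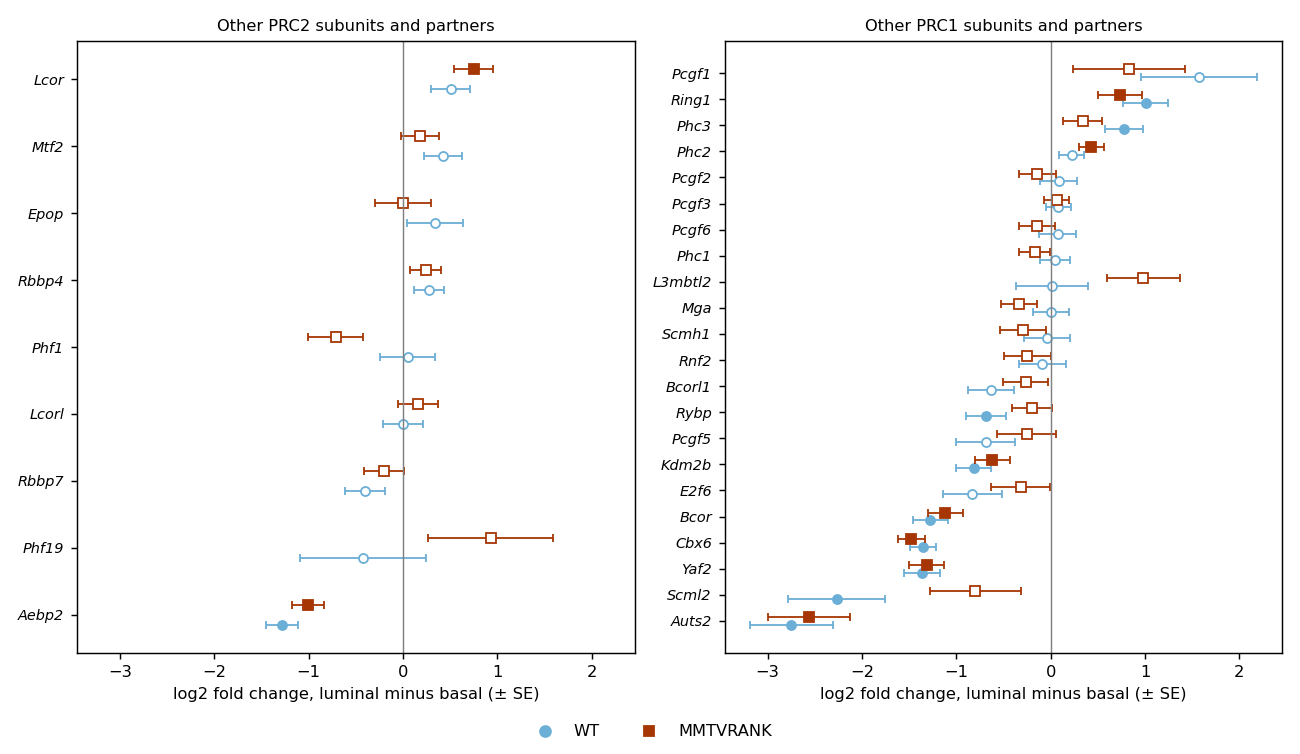
Log2 fold change, luminal minus basal, with its SE for other PRC2 and PRC1 genes in WT (circles) and MMTVRANK (squares), filled where the edgeR adjusted p was under 0.05. Aebp2, Cbx6, Yaf2, Bcor and Auts2 lie below 0 in both genotypes.

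Enzymes and partners taken as opposing Polycomb silencing formed a list of 12 genes, all tested. Luminal minus basal, 2 fell in WT and 4 in MMTVRANK, and none rose. Of all genes 38.1% in WT and 33.2% in MMTVRANK passed in either direction, and 20% and 17% fell. Asxl3, a partner of the H2A deubiquitinase Bap1, had 0 counts in 3 of 3 WT luminal libraries and 868 counts over the WT basal ones, so it was at least 324-fold higher in WT basal cells (floor of 3 counts over the group). In MMTVRANK it held 17.5, 19.1 and 18.5 CPM in basal and 0.545, 0.0639 and 0.762 CPM in luminal libraries, and fell by 5.29 (SE 0.61, edgeR adjusted p = 8.46e-05). Kdm6b, a demethylase that removes the PRC2 mark, fell by 0.80 in WT (SE 0.26, adjusted p = 0.0270) and by 0.73 in MMTVRANK (SE 0.26, adjusted p = 0.0447). The WT call was lost without both WT replicate 2 libraries (−0.94, adjusted p = 0.0592) and without WT luminal replicate 1 (−0.62, adjusted p = 0.0995), WT luminal replicate 2 (−0.83, adjusted p = 0.0563) or WT basal replicate 3 (−0.49, adjusted p = 0.133). Kmt2a and Ash1l encode histone methyltransferases of active genes. The MMTVRANK calls of Kdm6b, Kmt2a (fell by 0.62) and Ash1l (fell by 0.46) were lost in 8, 7 and 8 of 18 alternatives. Leaving out any 1 of the 6 MMTVRANK libraries ended the Kdm6b and Ash1l calls, and 5 of these 6, all but MMTVRANK basal replicate 3, ended that of Kmt2a. Leaving out WT luminal replicate 2 ended those of Kdm6b (−0.73, adjusted p = 0.0583) and Kmt2a (−0.61, adjusted p = 0.0514). Between genotypes 0 of 12 passed by edgeR in either population, with 2 in luminal and 0 in basal cells at an unadjusted p under 0.05. Of all genes 12% in luminal and 5.41% in basal cells had such a p.

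The Cdkn2a locus, a classical target of PRC1 and PRC2 that encodes 2 inhibitors of cell division, went with the lineage. Cdkn2a held 0.155, 0.936 and 0.171 CPM in WT basal libraries (2, 13 and 2 counts) and 1.35, 3.83 and 3.62 CPM in WT luminal ones. In MMTVRANK it held 0.227, 0.0843 and 0.313 CPM in basal (3, 1 and 4 counts) and 11.9, 8.37 and 4.04 CPM in luminal libraries. Luminal levels thus lay above basal ones in each genotype. Cdkn2a rose from basal to luminal cells by 2.76 in WT (SE 0.79, edgeR adjusted p = 0.0156) and by 5.21 in MMTVRANK (SE 0.89, adjusted p = 0.000662). The WT call was lost without WT basal replicate 3 (2.41, adjusted p = 0.0508). In luminal cells the genotypes did not overlap either, with a value of 1.46 that did not pass (SE 0.72, adjusted p = 0.456). The neighbouring inhibitor gene Cdkn2b had 1.30 there (SE 0.87, adjusted p = 0.652), with 0.374, 2.06 and 1.14 CPM in WT and 4.02, 2.37 and 2.46 CPM in MMTVRANK luminal libraries. Bmi1, known as a repressor of this locus, was also higher in luminal cells. Any link between Bmi1 and Cdkn2a was not tested, and bulk libraries do not show whether both RNAs came from the same cells.

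Across the 12 libraries the genes with a pattern most like each member were found by Pearson's r of log2 CPM over 11129 genes, as a description over points that share groups and depth. Bmi1 had the closest companions, Commd9 (r = 0.989) and Dbnl (0.985). Ezh2 was most like Snrpa1 (0.901), Usp1 (0.899) and Hirip3 (0.896), and Ezh1 most like Lrch3 (0.931), Fbxl20 (0.897) and Epm2a (0.896). For Suz12 these were Rad50 (0.876), Nxt1 (0.872) and Arpp19 (0.869), and for Eed Arfip1 (0.923), Fastkd1 (0.897) and Wdr5 (0.892). Jarid2 was closest to Zfp597 (0.956), Pradc1 (0.931) and Wdr59 (0.919). The Cbx genes were closest to Mau2 (0.961), Thap3 (0.945) and Chchd10 (0.936) for Cbx7, to Alg9 (0.927), Bola1 (0.921) and Hs1bp3 (0.921) for Cbx8, and to Hmgb2 (0.932), Ddx20 (0.925) and Hist1h2ab (0.901) for Cbx2. Among the members themselves the highest values were 0.79 for Bmi1 with Cbx8 and 0.75 for Bmi1 with Cbx7, and the lowest was −0.61 for Ezh1 with Ezh2. Within groups, after the group means were removed, these were 0.58, 0.48 and −0.34, and the highest within-group value of any pair was 0.89 for Eed with Cbx7.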

How the data were processed

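RNA was prepared from live cells sorted by CD24 and CD49f and turned into libraries with the SMARTer Stranded Total RNA-seq Pico kit (per the labels' protocols). The submitters' processing notes name STAR 2.6.1b, GRCm38.p6 and Subread 1.5. What the authors deposited are whole read counts per gene symbol, made by featureCounts 1.5.2 on GENCODE M17, assigned by largest exon overlap with no strand option, per the file headers. Opposite-strand exons overlap 174 bases of Ezh2 (Gm26625), 178 of Suz12 (Gm26563), 261 of Eed (RP24-88J19.1) and 100 of Cbx7 (Apobec3), so reads there cannot be told apart.

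With edgeR 4.0.16 (R 4.3.3), filterByExpr at a minimum count of 10 left 18236 genes. These reached about 0.728 CPM in at least 3 libraries, of whichever group. After TMM scaling, 1 model of the 4 groups, as titled, was fitted to all 12 libraries and tested by robust quasi-likelihood. P-values carry a Benjamini-Hochberg adjustment over all genes tested (threshold 0.05), and come from edgeR unless DESeq2 1.42.0 or limma-voom (limma 3.58.1) is named. Dividing a log2 fold change by the root of its F gave the SE. Intervals and floors cover counting error only. Alternatives were RLE factors, DESeq2, limma-voom, no filter, the replicate number as a block, leaving out both WT replicate 2 libraries, and leaving out each library, 18 in all. CPM per kb used the summed exon length deposited by the authors, per the file headers. Of the scripts, only the edgeR fit was run on simulated counts, for the luminal genotype comparison.

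The members and gene lists were chosen with earlier results of these data known. Named were the members, Tnfrsf11a, Mki67, Cdkn2a and Cdkn2b, up to 4 genes with the smallest p of each other Polycomb list, and the 3 genes most like each member (average log2 CPM of 2 or more, no predicted names). A gene of the PRC1 list and 1 of the genes most like a member are not reported here. Same-numbered libraries deviated together from their group means over 10082 genes: the pairs numbered 1, 2 and 3 had correlations of 0.525, 0.125 and 0.392 between luminal genotypes, 0.277, 0.168 and 0.343 between WT populations, and 0.278, 0.144 and 0.199 between MMTVRANK populations. All exceed 0.1, while differently numbered libraries of these comparisons had −0.492 to 0.0581. The numbers were thus read as pairing there, from the data alone, since no label explains the numbers. The main p-values do not use this pairing, which entered only as the replicate block among the alternatives.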

Additional observations from a re-analysis of the deposited data

How the results depend on the processing

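The 9 genes in 5 comparisons gave 45 values, each under 18 alternatives; 754 of the results kept their direction and side of the threshold, 15 passed newly, 8 no longer passed and 33 changed sign, the last only for values that did not pass. The cause of these shifts was not tested. Without both WT replicate 2 libraries the sign turned for Bmi1 in luminal cells between genotypes (−0.0232), Ezh1 in basal cells between genotypes (−0.0824), and Suz12 (−0.0195) and Cbx7 (0.15) in the difference of genotype effects. Cbx2 between WT populations turned to 0.34 with limma-voom and 0.0388 with the replicate block. With 1 library left out, the values that turned ranged, between genotypes in luminal cells, from −0.0929 to 0.33 for Bmi1 and −0.34 to 0.0574 for Cbx8; in basal cells, from −0.0823 to 0.35 for Ezh1, −0.43 to 0.46 for Cbx2, −0.29 to 0.26 for Eed, −0.68 to 0.0228 for Cbx7 and −0.0190 to 0.36 for Bmi1; between WT populations, from −0.57 to 0.32 for Cbx2, −0.0327 to 0.20 for Suz12 and −0.53 to 0.0724 for Eed; between MMTVRANK populations, from −0.30 to 0.0241 for Ezh1; and for the difference of genotype effects, from −0.00430 to 0.29 for Suz12, −0.53 to 0.17 for Cbx7 and −0.28 to 0.17 for Bmi1.

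Counts of genes past the threshold depended on the tool. Between luminal genotypes 46 genes became 800 with DESeq2, 29 with limma-voom, 1353 with no filter, 103 with the replicate block, 81 without both WT replicate 2 libraries and 3 to 93 with 1 library left out. Between basal genotypes 1 became 66 with DESeq2, 0 with limma-voom, 349 with no filter, 4 without both WT replicate 2 libraries and 0 to 8 with 1 library left out. For the difference of effects 1 became 140 with DESeq2, 0 with limma-voom, 776 with no filter, 0 with the replicate block, 3 without both WT replicate 2 libraries and 0 to 7 with 1 library left out. Members past the threshold went from 0 to 1 between luminal genotypes with DESeq2 and with no filter, from 2 to 4 with DESeq2 and to 1 without both WT replicate 2 libraries between WT populations, and from 0 to 1 with DESeq2 for the difference of effects. Between basal genotypes same-numbered libraries correlated at 0.404, −0.0706 and 0.0915, and MMTVRANK replicate 2 with WT replicate 3 at 0.311. The numbers were thus not read as pairing there, although correlations between so few libraries cannot exclude it. The replicate block left the count of genes between basal genotypes at 1. Apart from the calls of Cbx7 given above, the pairing by replicate number changed the call of no member. Cbx2 had the fewest counts of the members, 4 to 120 per library, so counting error bears on it more than on the others.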
